A study of Mus musculus with 16 samples.

Results

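The acute-phase proteins described here are the products of 8 genes: the serum amyloid A genes Saa1, Saa2 and Saa3, lipocalin 2 (Lcn2), chitinase-3-like protein 1 (Chil1), haptoglobin (Hp), ceruloplasmin (Cp) and pentraxin 3 (Ptx3). They were picked by gene name from 49315 genes measured in mouse intervertebral discs, and all 8 passed the filter of at least 1 TPM in at least 3 libraries, which left 24188 genes to test. TPM is a read number divided by gene length and scaled so that each library sums to the same total. Saa1 and Saa2 reached 1 TPM in no intact library and Saa3 in 1, so the 3 Saa genes passed the filter through the injured groups alone. The 8 genes were chosen with their differences between injured and intact discs, and between genotypes in injured discs, already known. Those differences are therefore given as descriptions with no p. Where members are counted by the threshold of the fit in these comparisons, the count describes the values that chose them and supports nothing.

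The study sequenced RNA from tail discs of 16 mice, with 4 coccygeal discs (Co3/4 to Co6/7) of each mouse pooled into 1 library. Of the mice, 3 were wild type with intact discs, 4 were wild type with injured discs, 4 carried Adam8EQ with intact discs and 5 carried Adam8EQ with injured discs. The product of Adam8 is a metalloprotease anchored in the cell membrane, and the title of the series names DBA, an inbred strain, beside the mutant. The age and sex of the mice, the kind of injury and the time after it are not given in the sources used here. All differences are between means of log2(TPM + 1), a scale that understates changes of genes near 0, and their errors are standard errors of 1 limma fit over the 16 libraries.

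Acute-phase proteins are secreted proteins whose blood level moves during inflammation, and the liver is their best known source. Cytokines of the interleukin 6 family act through STAT3, and interleukin 1 and TNF act through NF-kB and C/EBP factors, to switch on their genes. Several of them are also made in other tissues: cartilage cells can make Saa3, Lcn2 and Chil1, and Ptx3 is made by many connective tissue and immune cells at the site of inflammation rather than by the liver.

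The tissue carried the genes of disc cells, and most genes of liver cells were near 0. Aggrecan (Acan), the main proteoglycan of disc and cartilage, averaged 6423 ± 412 TPM (SD, n = 3) in intact wild-type discs, and T (brachyury), the notochordal transcription factor of nucleus pulposus cells, averaged 3008 ± 374 TPM there. Albumin (Alb), the main product of hepatocytes, was at most 0.580 TPM in any library, and Apoc3 and Ttr were listed at 0 in all 16. Between 8 and 10 of the 12 hepatocyte markers stayed under 1 TPM throughout each group. The exceptions include Serpina1a, an antitrypsin, which averaged 231 ± 52.3 TPM (SD, n = 3) in intact wild-type discs and 27.7 ± 13.2 TPM (SD, n = 5) in injured mutants, lower where the acute-phase genes were high. Reads implied by the TPM values numbered 10195116 to 24832148 per library.

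The stretches of DNA just upstream of the members are shown because the factors named above bind such stretches and 7 of the 8 genes stood higher after injury. The sequences are RefSeq windows on build GRCm38.p6, 5′ to 3′ on the strand of the gene, counted from -1 at the base before the start, and shortened where an annotated exon of a coding transcript begins. Capitals mark matches on either strand to TTNNGNAA, the letters of a C/EBP site, and, in Chil1 alone, to the NF-kB consensus. Saa1 is chr7:46742981-46743230 on the minus strand, Saa2 chr7:46751583-46751789 on the plus strand, Saa3 chr7:46715701-46715926 on the minus strand, Chil1 chr1:134181906-134182155 on the plus strand, Ptx3 chr3:66219637-66219886 on the plus strand and Cp chr3:19956804-19957053 on the plus strand.
Saa1: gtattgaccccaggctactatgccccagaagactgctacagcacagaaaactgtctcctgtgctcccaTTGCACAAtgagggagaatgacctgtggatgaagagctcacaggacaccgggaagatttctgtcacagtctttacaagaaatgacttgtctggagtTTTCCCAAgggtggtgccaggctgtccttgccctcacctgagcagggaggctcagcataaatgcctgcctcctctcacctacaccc
Saa2: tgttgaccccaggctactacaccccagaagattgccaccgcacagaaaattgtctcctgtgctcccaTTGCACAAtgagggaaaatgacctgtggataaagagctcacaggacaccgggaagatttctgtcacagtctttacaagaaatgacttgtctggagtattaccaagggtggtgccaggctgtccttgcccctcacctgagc
Saa3: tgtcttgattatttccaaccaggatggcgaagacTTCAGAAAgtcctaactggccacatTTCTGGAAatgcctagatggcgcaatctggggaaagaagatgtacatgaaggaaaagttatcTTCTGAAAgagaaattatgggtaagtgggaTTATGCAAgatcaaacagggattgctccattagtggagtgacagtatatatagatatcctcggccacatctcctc
Chil1: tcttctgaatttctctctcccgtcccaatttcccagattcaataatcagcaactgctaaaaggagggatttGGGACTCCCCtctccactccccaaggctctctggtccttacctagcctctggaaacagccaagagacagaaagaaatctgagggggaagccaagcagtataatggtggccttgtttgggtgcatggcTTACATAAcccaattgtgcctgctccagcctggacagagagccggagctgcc
Ptx3: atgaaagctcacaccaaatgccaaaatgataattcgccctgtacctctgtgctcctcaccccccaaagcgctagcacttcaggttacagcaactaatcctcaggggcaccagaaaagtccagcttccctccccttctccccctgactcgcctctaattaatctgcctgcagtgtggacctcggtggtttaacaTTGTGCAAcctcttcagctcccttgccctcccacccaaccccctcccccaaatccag
Cp: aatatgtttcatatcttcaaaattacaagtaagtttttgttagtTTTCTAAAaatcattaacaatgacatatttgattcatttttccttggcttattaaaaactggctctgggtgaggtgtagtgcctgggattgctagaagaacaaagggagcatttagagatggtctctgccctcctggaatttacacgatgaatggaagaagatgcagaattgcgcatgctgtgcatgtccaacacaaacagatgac

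Saa1 and Saa2 carry the same match, TTGCACAA, at -182 to -175 in Saa1 and at -183 to -176 in Saa2. Aligned end to end, their printed windows were identical at 94.7% of the 206 positions where both have a base, and those of Saa1 and Saa3 at 64.2% of 212. Saa1 has a further match, TTTCCCAA, at -86 to -79, which was not found in the Saa2 window. Saa3 holds 4 matches, the one nearest the start at -99 to -92. Chil1, Ptx3 and Cp hold 1 C/EBP match each, and the NF-kB match of Chil1, GGGACTCCCC, lies at -179 to -170. The C/EBP letters are common: they occur in 36.8% of 32851 RefSeq windows of 250 bases, and Cp, which was not higher after injury, has them too. The NF-kB consensus occurs in 7.25% of those windows. A STAT site, searched as TTCNNNGAA, occurs in 7.02% of them and in none of the 6 printed here. A match is a description of letters, not a bound site.

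On the genome the 3 Saa genes lie in 1 stretch of chromosome 7, which bears on how their reads are shared out. Saa3 spans chr7:46711998-46715700, Saa1 chr7:46740497-46742980 and Saa2 chr7:46751790-46754313, all on GRCm38. The Saa1 and Saa2 transcripts are identical at 94.4% of positions where both have a base, and 13.2% of the 50-base words of Saa1 are also in Saa2, so the split of reads between this pair is uncertain. For the Saa1 and Saa3 transcripts the share is 76.3%. Lcn2 lies at chr2:32384633-32388252, Chil1 at chr1:134182176-134190181, Hp at chr8:109575128-109579172, Cp at chr3:19957054-20009145 and Ptx3 at chr3:66219910-66225805. All 8 are protein-coding.

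In intact discs the members differed widely in level. Cp stood highest in TPM in wild type, at 237 ± 24.8 (SD, n = 3), followed by Chil1 at 171 ± 24.2 and Lcn2 at 69.3 ± 14.5. Ptx3, at 3.10 ± 1.62 TPM, and Hp, at 2.93 ± 1.13 TPM, did not differ beyond their spread. The 3 Saa genes were at the edge of detection in all 7 intact libraries: Saa1 was at most 0.888 TPM, Saa2 at most 0.643 TPM and Saa3 at most 1.09 TPM, which stood for 0 to 7, 0 to 4 and 1 to 9 implied reads. These comparisons between genes rest on the union exon length behind the TPM values, which is 4.07 times the main transcript length for Saa1 and 1.19 times for Hp.

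The order of levels was different in injured discs. The 8 genes together took 0.0449% to 0.0983% of the transcripts of an intact library and 0.209% to 1.14% of those of an injured one. Their summed level was 484 ± 52.8 TPM (SD, n = 3) in intact and 3279 ± 1225 TPM (SD, n = 4) in injured wild-type discs. In mutants it was 662 ± 218 TPM (SD, n = 4) in intact and 7215 ± 3454 TPM (SD, n = 5) in injured discs. Chil1 and Lcn2 made up 86.4% to 94.0% of that sum in every injured library and 46.3% to 80.7% in the intact ones. In bulk tissue, more cells of a type and more RNA per cell cannot be told apart, and this holds for every level below.

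The serum amyloid A proteins are carried in blood on high-density lipoprotein, and Saa1 and Saa2 are the classical liver forms. Saa1 stood at 0.685, 0.888 and 0 TPM in the 3 intact wild-type mice and at 2.71, 8.67, 91.3 and 54.7 TPM in injured wild-type mice 1 to 4. Mutant mice stood at 0.327, 0.888, 0.119 and 0.125 TPM in intact and 286, 141, 288, 86.7 and 70.5 TPM in injured discs. Every injured library was above every intact one, and injured wild-type mice 1 and 2 were far below the other 7 injured mice. The difference between injured and intact means was 3.82 ± 0.95 (log2, SE) in wild type and 6.81 ± 0.83 in mutants.

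Saa2 followed Saa1 at a lower level. It stood at 0.135, 0.250 and 0 TPM in intact wild-type and at 1.27, 4.12, 28.9 and 15.4 TPM in injured wild-type mice. The mutants had 0.643, 0.375, 0.235 and 0.369 TPM in intact and 137, 48.6, 140, 36.0 and 32.6 TPM in injured discs. The 5 injured mutants all lay above the 4 injured wild-type mice, which Saa1 did not show. Injured minus intact was 2.95 ± 0.78 (log2, SE) in wild type and 5.55 ± 0.69 in mutants. The TPM ratio of Saa1 to Saa2 stayed between 2.06 and 3.55 in the 9 injured libraries.

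Saa3 is the form best known from cells outside the liver, such as macrophages, fat and cartilage cells. It stood at 0.391, 0.724 and 0.298 TPM in intact wild-type and at 0.491, 2.27, 139 and 115 TPM in injured wild-type mice. In mutants it was 0.155, 1.09, 0.227 and 0.238 TPM in intact and 96.6, 236, 117, 18.04 and 14.9 TPM in injured discs. Injured wild-type mouse 1 lay inside the intact range, while mouse 3 exceeded 4 of the 5 injured mutants and mouse 4 exceeded 3. The injured mean exceeded the intact one by 3.52 ± 1.51 (log2, SE) in wild type and 5.46 ± 1.33 in mutants.

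The balance between Saa1 and Saa3 split the injured mice. Saa1 was 0.659 and 0.478 times Saa3 in injured wild-type mice 3 and 4 and 0.599 times Saa3 in injured mutant 2. In the other 6 injured mice the ratio was 2.46 to 5.52. The 3 mice with more Saa3 than Saa1 were also those with the highest summed TPM of the 12 neutrophil markers, 191 and 144 in wild-type mice 3 and 4 and 1023 in mutant 2, against 11.5 to 92.5 in the other 6. The macrophage sum did not divide them the same way, since injured mutant 4, at 2606 TPM, exceeded wild-type mouse 4, at 2436 TPM. The part of either cell type in the ratio was not tested.

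**Figure D1:**
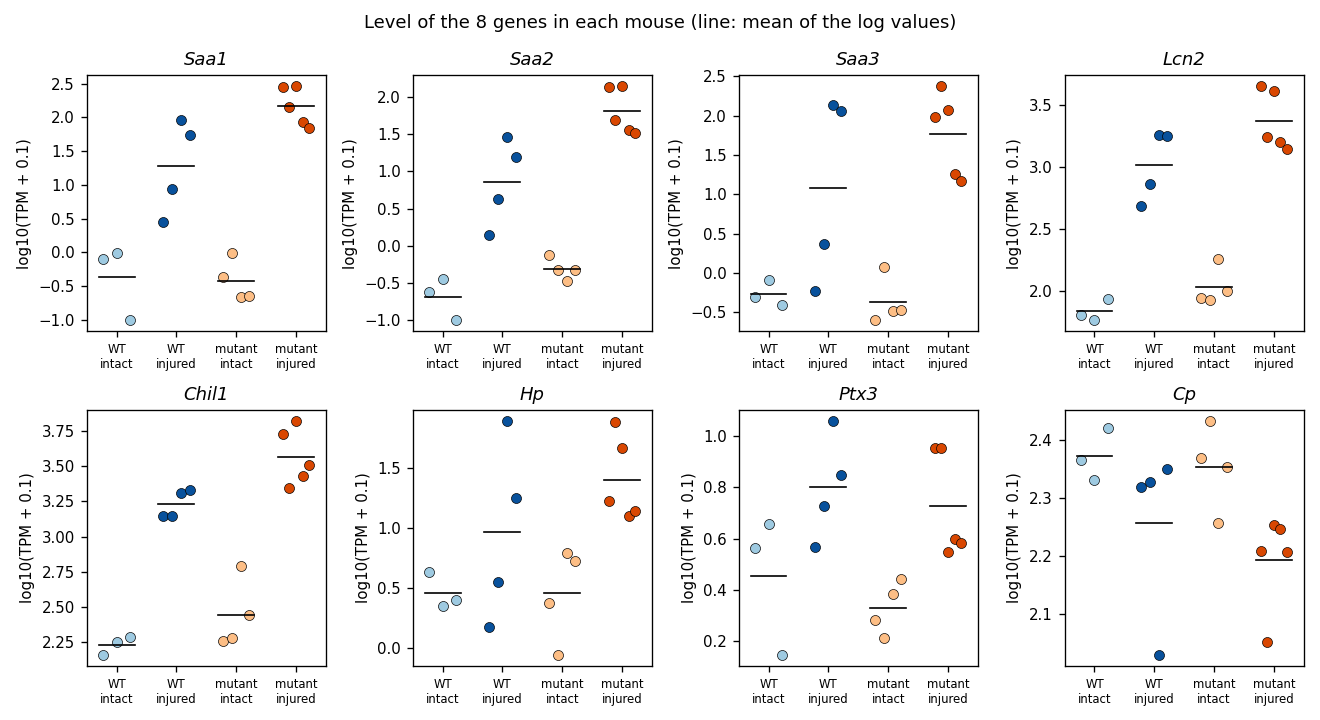
Level of each of the 8 genes in the 16 libraries, as log10(TPM + 0.1) with 1 point per mouse and a line at the mean of the log values of the group. The 7 genes other than Cp sit higher in every injured mutant than in any intact mutant, injured wild-type mice 1 and 2 (the 2 leftmost points of their group) sit low for the Saa genes and Hp, and the Cp panel covers a narrow range. Vertical scales differ between panels.

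Lipocalin 2 binds the iron carriers that bacteria secrete and is made by neutrophils and by many epithelial and connective tissue cells. Its level was 63.7, 58.4 and 85.8 TPM in intact wild-type and 478, 723, 1805 and 1762 TPM in injured wild-type mice. Mutant mice stood at 86.7, 83.7, 182 and 100.4 TPM in intact and 4427, 1729, 4042, 1573 and 1387 TPM in injured discs. Intact and injured mice did not overlap in either genotype, and mice 1 and 2 of the injured wild type, though lowest, were well clear of the intact range. Injured minus intact was 3.89 ± 0.55 (log2, SE) in wild type and 4.42 ± 0.48 in mutants.

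Because neutrophils make lipocalin 2, the summed level of the 12 neutrophil markers is given beside it. In the 4 injured wild-type mice both had the same order, with neutrophil sums of 11.5, 12.8, 191 and 144 TPM in mice 1 to 4. The sums of mice 1 and 2 were under the 15.0 to 19.9 TPM of intact wild-type discs. In the 5 injured mutants the order differed: the sums were 88.2, 1023, 45.8, 92.5 and 19.1 TPM, and mutant 2, with the highest sum, came after mutants 1 and 3 in Lcn2. The part of neutrophils in the Lcn2 level was not tested.

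Chitinase-3-like protein 1 is a secreted lectin that binds chitin without cutting it and is made in quantity by stressed cartilage cells. It stood at 144, 177 and 191 TPM in intact wild-type and at 1396, 1394, 2055 and 2162 TPM in injured wild-type mice. The mutants had 179.8, 189.8, 612 and 274 TPM in intact and 5374, 2223, 6631, 2704 and 3250.3 TPM in injured discs. The groups fell in order without overlap from intact to injured wild type to injured mutant, and intact mutant 3 stood above the other intact mice. The injured mean exceeded the intact one by 3.33 ± 0.45 (log2, SE) in wild type and 3.75 ± 0.40 in mutants. Chil1 had the tightest spread in injured wild type, where its lowest and highest mice differed far less than those of Saa1 or Saa3.

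Haptoglobin captures haemoglobin released from red blood cells. It stood at 4.23, 2.15 and 2.42 TPM in intact wild-type and at 1.40, 3.46, 77.8 and 17.7 TPM in injured wild-type mice. In mutants it was 2.27, 0.783, 6.07 and 5.21 TPM in intact and 16.7, 76.6, 46.9, 12.6 and 13.9 TPM in injured discs. The wild-type groups overlapped, since injured mouse 1 lay below and mouse 2 within the intact range, and the mutant groups did not. Injured minus intact was 1.55 ± 1.06 (log2, SE) in wild type and 2.73 ± 0.93 in mutants.

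Pentraxin 3 is a soluble pattern recognition protein that also helps hold hyaluronan-rich matrix together with the product of Tnfaip6. It stood at 3.54, 4.45 and 1.30 TPM in intact wild-type and at 3.58, 5.25, 11.3 and 6.98 TPM in injured wild-type mice. Mutant mice stood at 1.81, 1.52, 2.31 and 2.66 TPM in intact and 8.88, 8.88, 3.42, 3.88 and 3.74 TPM in injured discs. The mutant groups separated by less than 1 TPM, and the wild-type groups overlapped. The injured mean exceeded the intact one by 0.92 ± 0.41 (log2, SE) in wild type and 1.05 ± 0.36 in mutants, the smallest differences among the 7 genes that were higher after injury.

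Ceruloplasmin carries copper and oxidises iron, which lets iron be loaded onto transferrin. It stood at 232, 215 and 264 TPM in intact wild-type and at 209, 212, 107 and 224 TPM in injured wild-type mice. The mutants had 234, 271, 180.4 and 226 TPM in intact and 162, 112, 179.4, 176 and 161 TPM in injured discs. Cp alone among the 8 was lower in every injured mutant than in any intact one, although mutants 3 of both groups differed by only about 1 TPM, and the wild-type groups overlapped. Injured minus intact was -0.38 ± 0.25 (log2, SE) in wild type and -0.53 ± 0.22 in mutants. The 2 lowest Cp values, in injured wild-type mouse 3 and injured mutant 2, came from the 2 libraries with the lowest summed level of the 8 disc and cartilage markers, 6398 and 4977 TPM against 11323 to 19749.9 TPM in the other 14. The part of tissue makeup in the Cp level was not tested.

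Counted over the comparison of injured with intact wild-type discs, 2 of the 8 members, Lcn2 and Chil1, were called higher at an adjusted p under 0.05, where 0.107% of all tested genes were called higher and 0.116% in either direction. In the same comparison 4 members (Saa1, Saa2, Lcn2 and Chil1) were higher without overlap, as were 9.22% of all tested genes. In mutants, 7 of 8 were called higher and none lower, where 13.1% of tested genes were called higher, 17.7% lower and 30.8% in either direction. All 7 were higher without overlap, as were 12% of tested genes, and Cp was lower without overlap, as were 15.3%. The median difference of the 8 members was 3.14 (log2) in wild type and 4.08 in mutants, beside 0.01 and -0.08 for all tested genes. The members were chosen for these differences, so the counts support nothing further.

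The wild-type values depend on which injured mice are counted. Injured wild-type mice 1 and 2 carry library names numbered 3728 and 3729, apart from 3739 and 3740 of mice 3 and 4. On the first principal component of all tested genes (40.6% of the variance) they lay at -42.6 and -23.2. The intact mice lay at -66.9 to -40.2 and the other 7 injured mice at 39.6 to 97.8, so mouse 1 was inside the intact range and mouse 2 nearer to it than to the other injured mice. Of the 7 members other than Cp, mouse 1 was among the 2 lowest of 9 injured mice for 7 and mouse 2 for 6. With mice 1 and 2 both left out, an alternative chosen after seeing the data, 6 of 8 members were called higher in wild type, the difference of Saa3 became 6.44 (log2) and that of Hp 3.33, and 3206 genes were called in place of 28.

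Leaving out single mice also moved the calls. The wild-type call of Lcn2 was lost without intact wild-type mouse 1 or 2 and that of Chil1 without intact wild-type mouse 1, while Saa1 and Saa2 were called in wild type without injured mouse 1. In mutants, Hp lost its call without injured mutant 2 or 3 or intact mutant 1 or 2. Ptx3 lost its own without injured mutant 1 or 2 or intact mutant 1, 2 or 3. The difference of Cp in mutants was called without intact mutant 3 or injured wild-type mouse 3.

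**Figure D2:**
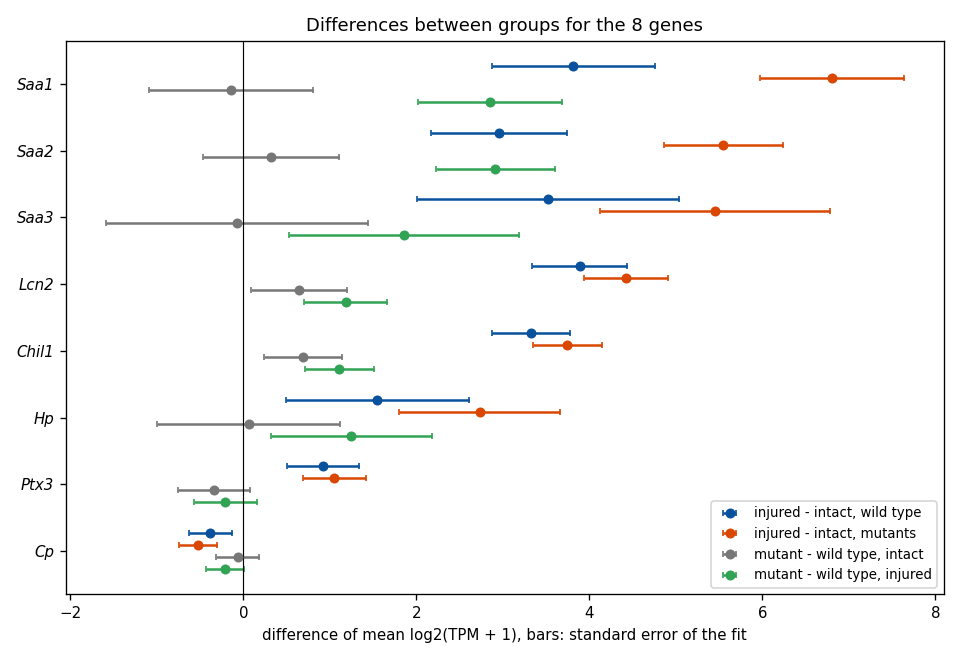
Differences between group means of log2(TPM + 1) for the 8 genes, with bars for the standard error of the fit. For the 7 genes other than Cp the injured minus intact points lie to the right of 0 in both genotypes, from 0.92 for Ptx3 to 6.81 for Saa1, and the mutant minus wild-type points in intact discs lie between -0.34 and 0.69.

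Genotype was first compared in intact discs, a comparison that did not enter the choice of genes. Earlier results had already given no call of a member there, so the outcome was known beforehand. No member was called there by limma (0 of 8, with 0 at an unadjusted p under 0.05), where 0.0165% of tested genes were called and 915 genes were under 0.05 unadjusted. The adjusted p was 1 for each. The largest differences were those of Chil1, 0.69 ± 0.45 (log2, SE), and Lcn2, 0.64 ± 0.55, both mutant minus wild type. Intact mutant 3, at 612 TPM of Chil1 and 182 TPM of Lcn2, was the highest intact mouse for both, and without it the differences were 0.31 and 0.39. Cp differed by -0.07 ± 0.25 (log2, SE), Ptx3 by -0.34 ± 0.41, Hp by 0.06 ± 1.06 and the Saa genes by -0.14 to 0.32.

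In injured discs the mutants stood above wild type for 6 of the 8 members. Saa2 differed by 2.91 ± 0.69 (log2, SE), Saa1 by 2.85 ± 0.83, Saa3 by 1.86 ± 1.33, Hp by 1.25 ± 0.93, Lcn2 by 1.18 ± 0.48 and Chil1 by 1.11 ± 0.40. Cp and Ptx3 each differed by -0.21, with standard errors of 0.22 and 0.36. By the threshold of the fit 1 of 8 was called, Saa2, where 0.918% of tested genes were called in either direction and 0.190% higher. This is a count over values that chose the genes and supports nothing. Saa2 and Chil1 were higher without overlap, as were 0.905% of tested genes. The call of Saa2 was lost on leaving out any of 13 of the 16 mice, and held without injured mutant 2, injured mutant 4 or injured wild-type mouse 3. Saa1 was called as well when the last of these was left out.

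Leaving out injured wild-type mice 1 and 2 together moved these differences. Mutant minus wild type was then 1.06 for Saa1, 1.56 for Saa2, 0.38 for Lcn2 and 0.81 for Chil1 on the log2 scale. It turned to -1.06 for Saa3, -0.53 for Hp and 0.011 for Cp and became -0.65 for Ptx3, no member was called, and 1 gene was called in place of 222.

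The injury difference was larger in mutants than in wild type for 7 of the 8 members, but no member passed the test of that interaction (0 of 8 by limma, 2 at an unadjusted p under 0.05, where 0 genes of all were called and 1979 were under 0.05 unadjusted). This contrast uses the same mice as the differences that chose the genes. The estimate was 2.99 ± 1.26 (log2, SE) for Saa1, with an adjusted p of 0.535, and 2.60 ± 1.04 for Saa2, with an adjusted p of 0.529. It was 1.94 ± 2.02 for Saa3, with an adjusted p of 0.803, and between 0.13 and 1.18 for Hp, Lcn2, Chil1 and Ptx3, with adjusted p from 0.827 to 0.962. Cp gave -0.14 ± 0.33, with an adjusted p of 0.922. With injured wild-type mice 1 and 2 left out, the estimate turned negative for Saa3, Lcn2, Hp and Ptx3 and positive for Cp. With errors of this size, the data do not show that the genotypes responded alike or differently.

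Mutant libraries carry names that begin with A8 or with M, and the direction of every injury difference was the same under both. The name groups held 2 injured and 2 intact mice (A8) and 3 injured and 2 intact mice (M). The shared direction was fixed in advance, since all injured mutants lay apart from all intact ones for each of the 8 members. The size differed: Hp was 3.94 higher (log2) under A8 and 1.69 under M, Saa3 6.61 and 4.74, Ptx3 1.89 and 0.43, and Cp -0.90 and -0.23. With mutants named M alone in the fit, 4 members were called for injury in mutants and 743 genes over all. All wild-type libraries have names that begin with D, so naming and genotype cannot be told apart.

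Markers of macrophages and, in part, of neutrophils were higher in injured mutants. The summed TPM of the 10 macrophage markers ranged from 143 to 168 in intact and 226 to 3807 in injured wild-type discs. In mutants it ranged from 126 to 214 in intact and 751 to 7629 in injured discs. There 9 of 10 were called higher, beside 13.1% of all tested genes. The 12 neutrophil markers summed to 15.0 to 19.9 and 11.5 to 191 TPM in intact and injured wild type. In mutants they summed to 6.53 to 12.2 TPM in intact and 19.1 to 1023 TPM in injured discs. There 4 of 9 tested were called higher, beside the same 13.1%. Fcgr1, Cxcr2 and Csf3r, of these 2 lists, were at most 0.571, 0.516 and 0.941 TPM in any intact library. S100a8, S100a9, Mmp8, Itgam and Msr1 reached 1 TPM in only 1 intact library each, at 1.36, 1.20, 1.60, 1.35 and 1.35 TPM. All of these genes passed the filter through injured discs alone, so calls among them say little. In wild type 0 of 10 macrophage and 0 of 9 neutrophil markers were called by limma (9 and 1 at an unadjusted p under 0.05), with list medians of 2.34 and 0.14 (log2). Only 0.107% of all tested genes were called higher there, and 4155 were under 0.05 unadjusted. Higher without overlap in wild type were 8 macrophage and 0 neutrophil markers, beside 9.22% of all tested genes. Of the defining neutrophil genes, Ly6g and Mpo were listed at 0 in every intact library and reached at most 1.56 and 0.430 TPM in injured ones. Means of Elane and Camp, of the same list, were lower in injured discs, 1.64 and 0.739 TPM for Elane in intact and injured wild type and 0.255 and 0 TPM in mutants, and 7.39 and 4.40 TPM for Camp in wild type and 6.36 and 5.66 TPM in mutants. Neither passed the test in either genotype. Notochordal markers moved the other way, from 3329 to 5503 TPM in intact to 553 to 3345 TPM in injured mutants. Of these, 3 of 5 tested were called lower, beside 17.7% of all tested genes. None of the 5 tested red blood cell genes was called after injury by limma (0 at an unadjusted p under 0.05 in wild type and 1 in mutants). Of all tested genes 0.116% were called in wild type and 30.8% in mutants. The part of these cells in the acute-phase levels was not tested.

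**Figure D3:**
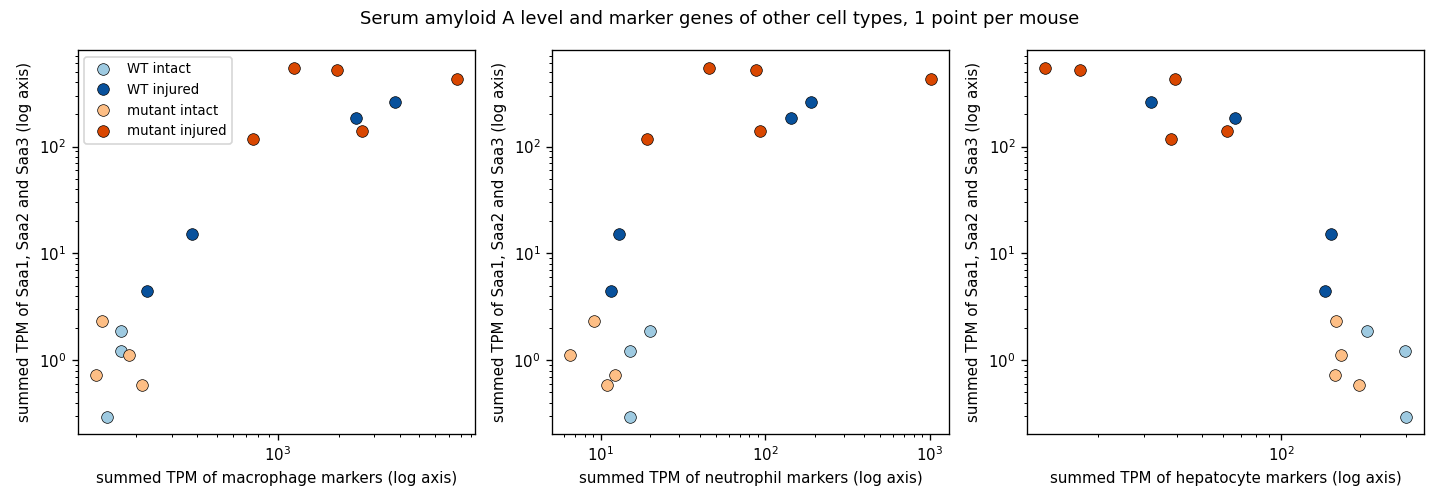
Summed TPM of Saa1, Saa2 and Saa3 (vertical, log axis) against the summed TPM of macrophage, neutrophil and hepatocyte markers (horizontal, log axes), with 1 point per mouse. The 7 injured mice with a Saa sum above 100 TPM have macrophage sums from 751 to 7629 TPM and hepatocyte sums of 12.6 to 66.8 TPM, which are below the hepatocyte sums of all 7 intact mice. Serpina1a and Serpina1c make up most of the hepatocyte sum, with means of 231 and 36.3 TPM in intact wild type. Injured wild-type mice 1 and 2 lie between them and the intact mice in Saa sum.

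Among other acute-phase proteins, 18 of 26 listed genes passed the filter. This list and those below were written with earlier results of these data known, so their counts and adjusted p are descriptions. In mutants 10 were called higher and 2 lower after injury, where 13.1% of all tested genes were called higher and 17.7% lower. The median difference was 1.44 (log2) beside -0.08 for all tested genes. Lbp, which hands bacterial lipopolysaccharide to its receptor, rose from 98.2 ± 14.5 TPM in 4 intact to 862 ± 435 TPM in 5 injured mutants (SD), a change of 2.88 ± 0.45 (log2, SE; adjusted p = 0.000561). Cd14, that receptor, rose by 2.99 ± 0.58 (adjusted p = 0.00143), and Mt2, a metal-binding metallothionein, by 2.88 ± 0.37 (adjusted p = 0.000246). Saa4, the constitutive serum amyloid A gene, was listed at 0 in all 7 intact mice and stood at 1.05 to 10.3 TPM in injured mutants. Orm1, Orm2, Hpx, C3, Il1rn and Mt1 were the other genes that rose. Il1rn was at most 0.170 TPM in any intact library. Saa4 and Il1rn passed the filter through injured discs alone, so their calls say little. The 2 that fell were Agt, the precursor of angiotensin, by 2.22 on the log2 scale (adjusted p = 0.000706), and C4b, a complement component, by 1.60 (adjusted p = 0.0496). For C4b the mutant groups overlapped, and intact mutants had a median of 81.7 and a maximum of 546 TPM. Injured wild-type discs stood 1.16 ± 0.73 (log2, SE) above intact ones for C4b, which was not called there. In wild type 1 of the 18 was called, Mt2, with a rise of 2.29 ± 0.42 (log2, SE; adjusted p = 0.0417), and the list median was 1.26 beside 0.01 for all tested genes. Of all tested genes 0.107% were called higher in wild type and 0.116% in either direction.

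Negative acute-phase proteins, which the liver makes less of in inflammation, were mostly near 0 in disc, and 5 of 10 passed the filter. In injured mutants 1 of the 5 was called higher, Apoa2, beside 13.1% of all tested genes. It was listed at 0 in all 4 intact mutants and stood at 0.570 to 10.4 TPM in injured ones. Like Saa4, it passed the filter through injured discs alone, so its call says little.

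The cytokines that induce acute-phase genes were higher in injured mutants for 7 of 9 tested members, with none called lower, beside 13.1% higher and 17.7% lower of all tested genes, and the list median was 2.84 (log2). Il11, a member of the interleukin 6 family, rose most, from 2.14 ± 1.45 TPM in intact to 506 ± 249 TPM in injured mutants (SD), a change of 7.23 ± 0.78 (log2, SE; adjusted p = 0.000117). Lif, of the same family, rose by 3.99 ± 0.83 (adjusted p = 0.00213), and Il6 itself by 3.07 ± 0.57 (adjusted p = 0.0013), its mean level being 0.464 ± 0.402 TPM in intact and 12.7 ± 6.86 TPM in injured mutants (SD). Il1b, Tnf, Osm and Clcf1 rose as well, while Il1a, at 0.31 (log2), and Ctf1, at 0.01, did not pass the test. Il6 and Osm were at most 0.833 and 0.553 TPM in any intact library. Tnf was at most 0.414 TPM in intact wild type and had a median of 0.726 TPM in intact mutants. Il6, Osm and Tnf passed the filter through injured discs alone, so their calls say little. In wild type none of the 9 passed (0 by limma, 4 at an unadjusted p under 0.05), with 3.53 ± 0.89 (log2, SE) for Il11 at an adjusted p of 0.103. Of all tested genes 0.116% were called there, and 4155 were under 0.05 unadjusted. Between genotypes in injured discs Il11 was the 1 cytokine called, 3.52 higher in mutants (adjusted p = 0.0373), with 66.6 ± 66.7 TPM (SD, n = 4) in wild type. That call was lost on leaving out any of 12 of the 16 mice, and with injured wild-type mice 1 and 2 left out the difference was 1.89 (adjusted p = 0.354).

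Receptors of these cytokines moved in both directions in mutants, 6 of 11 tested higher and 3 lower, beside 13.1% and 17.7% of all tested genes, with a list median of 0.78 (log2). Tnfrsf1b, a TNF receptor abundant on immune cells, rose by 4.10 ± 0.75 (log2, SE; adjusted p = 0.00106), and Osmr, the oncostatin M receptor, by 1.36 ± 0.25 (adjusted p = 0.00122). Il6ra, Il1rap, Tnfrsf1a and Il17ra were also higher. Il11ra1, the receptor of the cytokine that rose most, fell by 0.66 on the log2 scale (adjusted p = 0.000939), and Lifr and Il17rc fell too. In wild type none of the 11 passed (7 at an unadjusted p under 0.05 by limma). Of all tested genes 0.116% were called there, and 4155 were under 0.05 unadjusted.

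The list of transcription factors and feedback regulators of the acute-phase response, which includes inhibitors such as Socs3, Nfkbia and Zc3h12a, was higher in injured mutants for 10 of 11 tested genes, beside 13.1% of all. Rela, at 0.31 (log2), was the exception, and the list median was 2.13 (log2). Of the C/EBP genes, Cebpa rose by 3.07 ± 0.52 (log2, SE; adjusted p = 0.000785), Cebpd by 2.38 ± 0.26 (adjusted p = 0.000117) and Cebpb by 2.32 ± 0.53 (adjusted p = 0.00319). Socs3, one of the inhibitors named above, rose by 2.95 ± 0.64 (adjusted p = 0.00258), and Nfkbiz, a nuclear partner of NF-kB needed for some acute-phase genes, by 2.13 ± 0.38 (adjusted p = 0.000966). Stat3 rose by 0.78 ± 0.15 (adjusted p = 0.00166). In wild type Cebpd was the 1 gene of the list called, with 1.54 ± 0.30 (log2, SE; adjusted p = 0.0491), where 0.107% of all tested genes were called higher. The wild-type calls of Cebpd and Mt2 were each lost on leaving out any of 11 of the 16 mice. With injured wild-type mice 1 and 2 left out, 8 genes of this list, 7 cytokines and 6 other acute-phase proteins were called in wild type. Calls rose over all genes in that fit, to 3206 of 23821 tested.

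**Figure D4:**
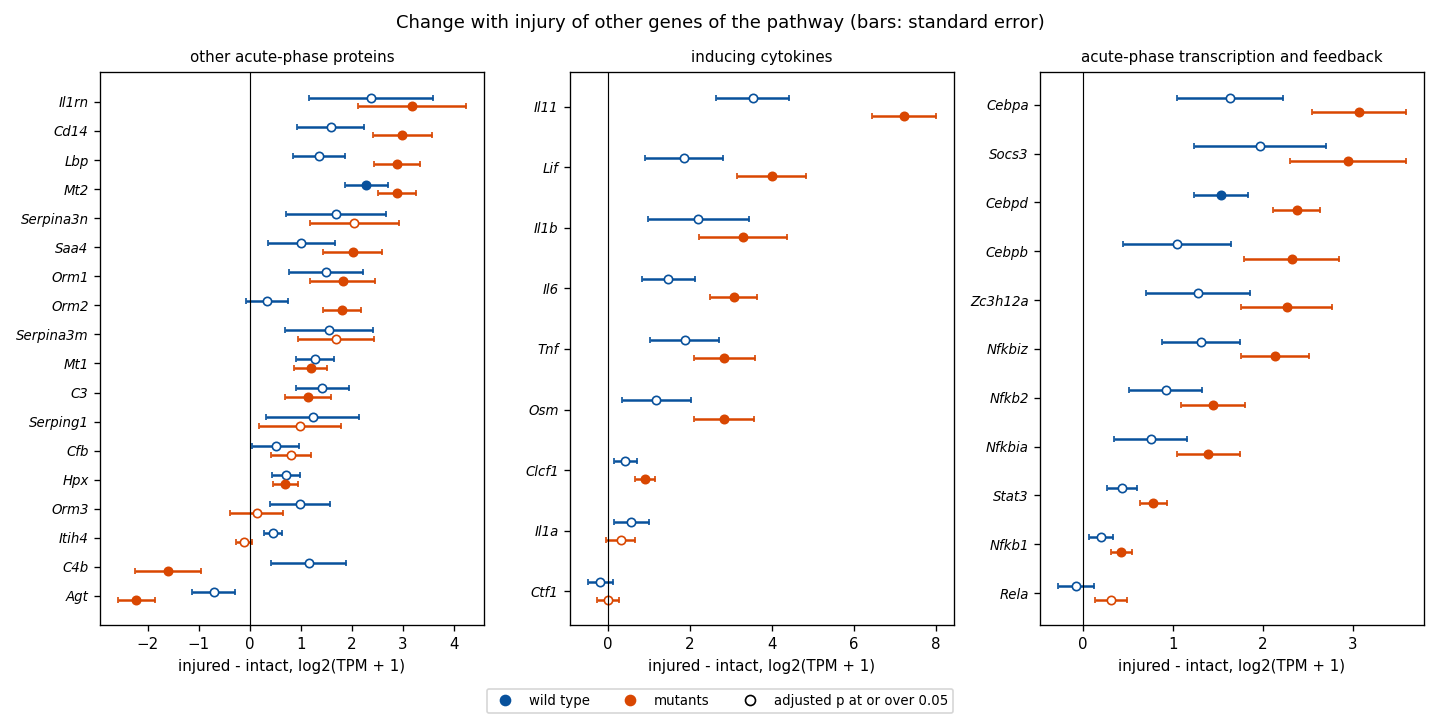
Injured minus intact difference of log2(TPM + 1) for the tested genes of 3 lists (other acute-phase proteins, inducing cytokines, transcription and feedback), in wild type and in mutants, with bars for the standard error and filled points for an adjusted p under 0.05. Filled points in wild type are Mt2 (2.29) and Cebpd (1.54), and in mutants Il11 lies farthest right, at 7.23.

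Of the receptors and partners through which the members act, 10 of 21 tested were called higher in mutants and 1 lower, beside 13.1% and 17.7% of all tested genes, with a list median of 0.85 (log2). For serum amyloid A, Cd36 rose by 4.09 ± 0.91 (log2, SE; adjusted p = 0.00279) and Tlr2 by 1.76 ± 0.38 (adjusted p = 0.0027), and Fpr2 was listed at 0 in all 4 intact mutants and stood at 1.21 to 143 TPM in injured ones, through which it passed the filter. For Lcn2, its uptake receptor Slc22a17 was the gene that fell, by 0.82 on the log2 scale (adjusted p = 0.00177). Its mean was 51.8 ± 6.73 TPM in the 4 intact and 29.0 ± 4.31 TPM in the 5 injured mutants (SD). For Ptx3, its matrix partner Tnfaip6 rose by 2.47 ± 0.47 (adjusted p = 0.0013). Hmox1, which breaks down the haem that Hp helps clear, rose by 3.12 ± 0.53 (adjusted p = 0.000785). On the iron side of Cp, the ferritin gene Fth1 rose by 1.13 ± 0.18 (adjusted p = 0.011). In wild type none of the 21 passed (6 at an unadjusted p under 0.05 by limma). Of all tested genes 0.116% were called there, and 4155 were under 0.05 unadjusted.

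Genes most like each member over the 9 injured mice differed from member to member. Over those mice the log2 level of Saa3 was closest to Mmp3, a matrix metalloprotease (Pearson r = 0.995), which itself ranged from 92.2 to 15323 TPM, and then to Ptges and Ereg. Hp was closest to Flna (r = 0.978), then to Cyp26b1 and Adamts4. Saa1 was closest to Orai2 (r = 0.982), Saa2 to Slc23a2 (r = 0.987), Lcn2 to Smim15 (r = 0.971), Chil1 to Rpl7l1 (r = 0.965), Ptx3 to D1Ertd622e (r = 0.97) and Cp to Smoc2 (r = 0.962). These r are descriptions over 9 libraries, taken as the highest among all tested genes with a symbol. The libraries held 11378406 to 24832148 implied reads. Injured wild-type mice 1 and 2 lay apart from the other injured mice on the first principal component, at -42.6 and -23.2 against 39.6 to 97.8. The part of either difference in these r was not tested. Mcub was the 1 gene named for a pair of members, Saa1 and Saa2.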

How the data were processed

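Libraries were made, per the labels' protocols, from Trizol-extracted RNA after ribosomal RNA depletion with QIAGEN FastSelect and the NEBNext Ultra II kit, although the labels' molecule field reads polyA RNA. The deposited values are TPM, 1 column for each mouse, computed by the authors. The submitters' processing notes name bcl2fastq 2.20 and GRCm38, while the aligner, counter, use of strand and annotation are not given in the sources used here. Groups came from the titles, since the genotype field of wild-type samples is cut short in the labels.

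Genes that reached 1 TPM in 3 libraries or more entered limma 3.58.1 (R 4.3.3, lmFit and eBayes with trend) on log2(TPM + 1), all 16 libraries in 1 fit, with Benjamini-Hochberg adjustment over all tested genes and a threshold of 0.05. On simulated data, 87% of genes with a log2 change of 2 and 43% with a change of 1 were called for injury in mutants, with 5 false calls among 23464 genes. The simulation gave each gene 1 spread in all groups and changed 200 genes. In the data Saa3 varied far more in injured than in intact wild-type discs, and 7438 genes were called in mutants. These rates may therefore not hold for the data. Members, gene lists and tests were chosen with earlier results of these data known. All members were named; of the other lists, genes past the threshold or among the 4 largest differences could be named, and for likeness the 3 genes of highest Pearson r with each member. Rela, Il1a and Ctf1, outside that rule, were named after their values were seen. Implied reads divide TPM by the worth of 1 read at the union exon length (GENCODE M21, GRCm38). Within 0.05, 94.1% to 95.0% of values under 20 reads came out whole in a library. These reads were used for depth alone. Promoters came from RefSeq (GRCm38.p6), with no entry printed for Hp and Lcn2. Tbxt appears in the table as T. Alternatives covered the pseudocount, filters, scaling, eBayes trend, sample weights, groups in the fit, a replicate block, library names and single mice. Leaving out injured wild-type mice 1 and 2 together, and fitting mutants named A8 alone, were added after the data were seen.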

Additional observations from a re-analysis of the deposited data

Results flagged for a closer look

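Among 27 checks of a group of 4 or 5 mice for a sample far from the others, 4 stood out by Dixon's criterion, where chance gives about 5% of checks. Saa3 stood at 1.09 TPM in intact mutant 2, apart from the other 3 intact mutants, though no intact mouse had more than 9 implied reads of Saa3. Lcn2 stood at 182 TPM in intact mutant 3, which was also the highest intact mouse for Chil1. Cp stood at 107 TPM in injured wild-type mouse 3 and at 112 TPM in injured mutant 2, each below the rest of its group. Both of these libraries had the lowest summed disc and cartilage markers of the 16.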

How the results depend on the processing

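Across the alternatives each injury difference of a member kept its direction, in wild type and in mutants. In wild type, fitting the groups compared alone gave 1 member called, and leaving out single mice 0 to 4. There the other acute-phase proteins and the transcription list each went from 1 called to 0 without a filter, under median-of-ratios scaling, without the eBayes trend, with the groups compared alone and with mutants named A8 only. Single mice gave 0 to 2 and 0 to 1, and 0 to 1 for cytokines, their receptors and the partners. With injured wild-type mice 1 and 2 left out, the wild-type counts were 6 members, 6 other acute-phase proteins, 7 cytokines, 4 receptors of cytokines, 8 transcription and feedback genes and 4 partners. Over all genes 3206 of 23821 tested were called in that fit. With mutants named M only, the counts in mutants were 4 members, 4 other acute-phase proteins, 1 cytokine, 4 receptors, 2 transcription and feedback genes and 4 partners, and with A8 only 6 partners. Members called between genotypes in injured discs were 2 with sample weights, 0 with a pseudocount of 0.1, no filter, quantile normalization, no trend, the groups compared alone, the name prefix as covariate, M only, A8 only, or mice 1 and 2 left out, and 0 to 2 over single mice.

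Over all genes, the 28 called in wild type became 64 (pseudocount 0.1), 11 (no filter), 17 (median-of-ratios), 13 (no trend), 77 (sample weights), 5 (groups compared), 7 (A8 only) and 2 to 463 over single mice. The 7438 in mutants became 743 (M only) and 3649 (A8 only). The 222 between injured genotypes became 86 (no filter), 93 (quantile), 1070 (weights), 5 (groups compared), 392 (name prefix), 1 (A8 only) and 7 to 2272 over single mice. The interaction gave 4 with weights. The 4 between intact genotypes became 8 with weights, 0 with the groups compared, 1 with M only and 2 with A8 only.

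Some directions turned. Mutant minus wild type in intact discs became 0.11 (A8 only) and 0.14 (Saa1 and Saa2 summed) for Saa1, 0.089 (A8 only) for Saa3, -0.014 (pseudocount 0.1), -0.12 (weights) and -0.67 (A8 only) for Hp and 0.093 (A8 only) for Cp. Over single mice it ran from -0.42 to 0.038 for Saa1, -0.28 to 0.042 for Saa3, -0.21 to 0.45 for Hp and -0.15 to 0.041 for Cp. In injured discs Ptx3 became 0.44 (A8 only) and ran from -0.43 to 0.046 over single mice. With mice 1 and 2 left out it became -1.06 for Saa3, -0.53 for Hp and 0.011 for Cp. The interaction became -0.089 for Chil1, 0.15 for Cp and -0.49 for Ptx3 with M only, ran from -0.12 to 0.50 for Ptx3 over single mice, and with mice 1 and 2 left out was -0.99 for Saa3, -0.26 for Lcn2, -0.59 for Hp, 0.077 for Cp and -0.32 for Ptx3. Without Chil1 the summed level was 313 and 1528 TPM in intact and injured wild type and 348 and 3179 TPM in mutants. The cause of these shifts was not tested.

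Groups share replicate numbers, but each mouse gave its own library and the numbers in the library names all differ. The replicate numbers therefore do not pair the mice. Deviations of same-numbered mice correlated at -0.22 to 0.15 over 21 pairs, beside -0.31 to 0.30 over 74 other pairs. With the replicate number as a block, 0 members were called between genotypes in injured discs, Ptx3 lost its call in mutants, the other acute-phase and transcription lists had 0 called in wild type, and all-gene counts were 5 in wild type, 11 between injured and 2 between intact genotypes. Depth limits the intact Saa levels, at 9 implied reads or fewer.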
